A study of Danio rerio with 49 samples.

Results

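The genes for proteins of the cytosolic ribosome were followed through zebrafish development and in larval heads, in wildtype fish and in MZrlig1 mutants. Members were chosen by name alone: names that start with rpl or rps and a digit, or with rplp, leaving out the rps6k kinases, rps27l and names with a colon. The rule took 99 gene identifiers, and 83 of them had a value in at least 1 library, out of 32520 genes with values. Of these 83 genes, 47 bear names of the large subunit and 36 names of the small subunit. The names are written here as the count files give them, largely as human symbols, and 4 names, RPL5 and RPS26 among them, belong to a pair of identifiers each. The rule also took 4 genes that are not core ribosomal proteins or are poorly known copies: rps19bp1, RPL7L1, RPL22L1 and rps11l.

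The ribosome joins a small subunit, which reads the mRNA, to a large subunit, which links amino acids. Each subunit holds rRNA and a fixed set of proteins, so the genes for these proteins are usually transcribed and translated together; in vertebrates their mRNAs begin with a terminal oligopyrimidine tract through which the mTOR pathway and LARP1 set their translation. Fish eggs carry a large store of maternal ribosomes, and the embryo begins to make its own after the zygotic genome is activated around the sphere stage.

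Whole embryos were collected at the 4-cell, sphere, shield, bud, 1 dpf and 5 dpf stages (dpf, days post fertilization), from wildtype fish and from MZrlig1 fish, which lack both the maternal and the zygotic product of the RNA ligase gene rlig1. Each library came from pooled animals, 10 up to shield and 8 from bud on, all kept in the dark. Heads were dissected from 5 dpf larvae raised in a light and dark cycle, 8 heads a pool, and the labels sort them by genotype and by good or bad behaviour. The libraries were poly(A)-enriched and numbered 36 from whole embryos and 13 from heads, with 4 a genotype at 4-cell, 2 at sphere, 3 from shield to 5 dpf, and 2 to 4 in the head groups. Which mutant allele was used, and whether pools of 1 group came from separate clutches, is not given in the sources used here, so p-values measure the spread between these pools, which may be partly technical. In pools of whole embryos or heads, fewer cells of a type and less RNA per cell cannot be told apart.

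Total counts ran from 12158453 to 18355308 a library, and the 95% exact binomial interval of the members' summed share was at most 0.0159 percentage points to either side, or 0.0255 in 1 library; it covers counting error only. The targeted gene rlig1 had 19 to 1084 counts in wildtype libraries and 0 to 4 in MZrlig1 libraries. The brain and eye markers summed to 4771 to 8805 CPM (counts scaled to a fixed library total) in heads and 4555 to 5094 CPM in whole 5 dpf larvae, while the blood markers summed to 8.35 to 33.2 CPM in MZrlig1 heads and 49.9 to 107 CPM in wildtype heads. At 4-cell the maternal markers were present in both genotypes. MZrlig1 replicate a at 1 dpf stood apart from all other libraries: it had 7815 genes detected, where the remaining 1 dpf libraries had 22619 to 22841. It is left out of every mean and test below unless stated, and is described by itself.

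The members' summed share of the total count was low at 4-cell and sphere, rose from there to 1 dpf, and stayed high in larvae and heads. The wildtype mean was lowest at sphere. In MZrlig1 the means at 4-cell and sphere were close (1.60% and 1.56%), and both sphere pools lay within the range of the 4-cell pools. In wildtype at 4-cell it was 1.98%, 1.77%, 1.72% and 1.16% in replicates a, b, c and f, and in MZrlig1 it was 2.04%, 1.58%, 1.65% and 1.15% in replicates b, c, d and f. The genotypes overlapped there, and replicate f was the lowest of both. At sphere it was 1.03% and 1.104% in wildtype and 1.43% and 1.68% in MZrlig1, so that both mutant pools were above both wildtype pools. At shield the wildtype values were 2.56%, 2.28% and 2.42%, and those of MZrlig1 were 2.92%, 3.19% and 2.35%. At bud they were 4.84%, 8.65% and 5.62% in wildtype and 5.00%, 6.03% and 5.11% in MZrlig1. Replicate b was the highest of both genotypes there, and wildtype replicate b was above every other bud library. The groups overlapped at shield and at bud. At 1 dpf the wildtype values were 9.18%, 10.9% and 7.97%, and MZrlig1 replicates b and c had 9.06% and 9.97%. Whole larvae at 5 dpf had 7.36%, 6.99% and 6.99% in wildtype and 7.53%, 9.49% and 6.78% in MZrlig1. The genotypes overlapped at both of these stages, and the highest value at 5 dpf was that of MZrlig1 replicate b.

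Heads spanned about the same range as whole 1 dpf embryos. Wildtype heads of good responders had 7.71%, 10.1%, 7.14% and 8.45%, and the MZrlig1 pools of good responders had 8.76% and 11.04%. Heads of bad responders had 8.68%, 8.31% and 8.52% in wildtype and 7.41%, 8.71%, 8.85% and 7.67% in MZrlig1. Within each behaviour the genotypes overlapped, and the value of 11.04% belonged to MZrlig1 replicate 3 of the good responders, whose member pattern is described further on.

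**Figure D1:**
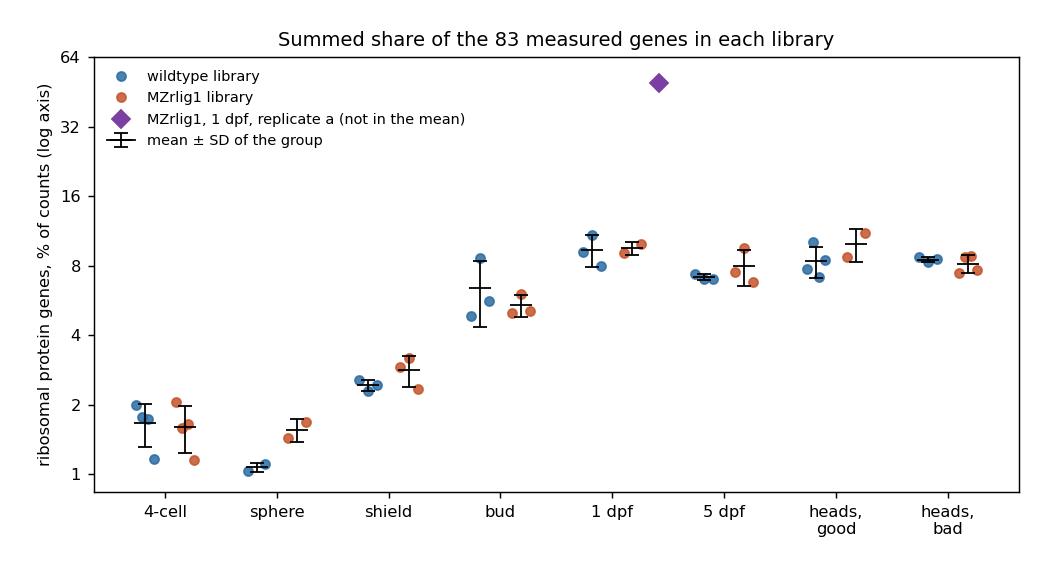
Summed share of the total count taken by the 83 measured cytosolic ribosomal protein genes in each library, in percent, by stage and head group, for wildtype and MZrlig1. The share was 1.03% to 2.04% at 4-cell and sphere and 7.97% to 10.9% at 1 dpf, apart from MZrlig1 replicate a with 49.4%.

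The wildtype mean was 1.66% ± 0.351 in 4-cell embryos (SD, n = 4) and 1.07% ± 0.0517 in sphere embryos (n = 2). From the shield stage on, with n = 3 each, it was 2.42% ± 0.136, then 6.37% ± 2.02 in bud embryos, 9.34% ± 1.46 in 1 dpf embryos and 7.12% ± 0.215 in 5 dpf larvae. The difference of MZrlig1 minus wildtype was larger than the pooled SD at the sphere stage, where it was 0.487 percentage points against an SD of 0.133, at shield with 0.399 against 0.322, and in heads of good responders with 1.55 against 1.37. It was smaller than the pooled SD at 4-cell (-0.0552 against 0.359), bud (-0.988 against 1.48), 1 dpf (0.172 against 1.25), 5 dpf (0.819 against 1.00) and in heads of bad responders (-0.343 against 0.574). Leaving out 1 pool moved several of these values. In heads of good responders the difference was 0.411 without MZrlig1 replicate 3 and 2.69 without replicate 2. At shield it was 0.212 without MZrlig1 replicate b and 0.637 without replicate c, and at 5 dpf 0.0401 without MZrlig1 replicate b and 1.397 without replicate c. At bud it was 0.153 without wildtype replicate b, the opposite sign, and -1.76 without wildtype replicate a. Same-letter pools were taken as pairs at bud, but the share difference and its pooled SD ignore that pairing. The differences at 4-cell and 1 dpf also changed sign with the pool left out. A sum over chosen genes was given no p-value.

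The balance between the subunits moved little. Small-subunit genes took 36.3% to 41.5% of the members' counts in 48 libraries, and 44.6% in MZrlig1 replicate a at 1 dpf. At sphere their part was 37.5% and 38.7% in wildtype and 39.7% and 40.4% in MZrlig1. Where replicates differed, members tended to move together: in wildtype bud the median coefficient of variation of a member's CPM, over members of at least 100 CPM, was 35.03%, but 7.88% once each member was taken as a part of the members' counts. In MZrlig1 at 5 dpf the same figures were 19.5% and 4.86%. In MZrlig1 heads of good responders the common scaling removed less of the spread, 17.7% against 14.3%.

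Levels can be compared between genes only per length, for which the deposited FPKM values (counts scaled by the length of a gene and the depth of its library) were used. Over wildtype whole embryos the highest mean levels belonged to RPS14 (2960 FPKM), a protein on the platform of the small subunit, RPS2 (2816 FPKM), found at the mRNA entry, and rps20 (2669 FPKM), a protein of the small subunit's head. Among the lowest were rps11l (0.627 FPKM) and rps19bp1 (37.7 FPKM), whose human product binds RPS19. The length that turns counts into FPKM was very short for some of these genes (220 bases for RPS14, 195 for rps20), and how it was set is not given in the sources used here, so the order among the highest is uncertain. In some libraries the ratio of each member to the other libraries of its stage also went with this length. Spearman's rho across 81 members ran from -0.63 in MZrlig1 replicate b at 5 dpf to 0.61 in wildtype replicate c at 5 dpf. In others it was weak, such as 0.03 in wildtype replicate c at 1 dpf. It was -0.37 in MZrlig1 replicate a at 1 dpf and -0.06 in MZrlig1 replicate 3 of the good responders. The part of length in the differences between libraries was not tested.

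The course over stages was shared by most members. In wildtype, 76 of the 83 had their highest mean CPM at 1 dpf and 72 their lowest at sphere. The exceptions to the late peak included rps19bp1, highest at shield, RPL7L1 at bud, and rplp2, rps27.2 and rps11l at 5 dpf. In MZrlig1, 74 were highest at 1 dpf, while 39 were lowest at 4-cell and 40 at sphere.

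**Figure D2:**
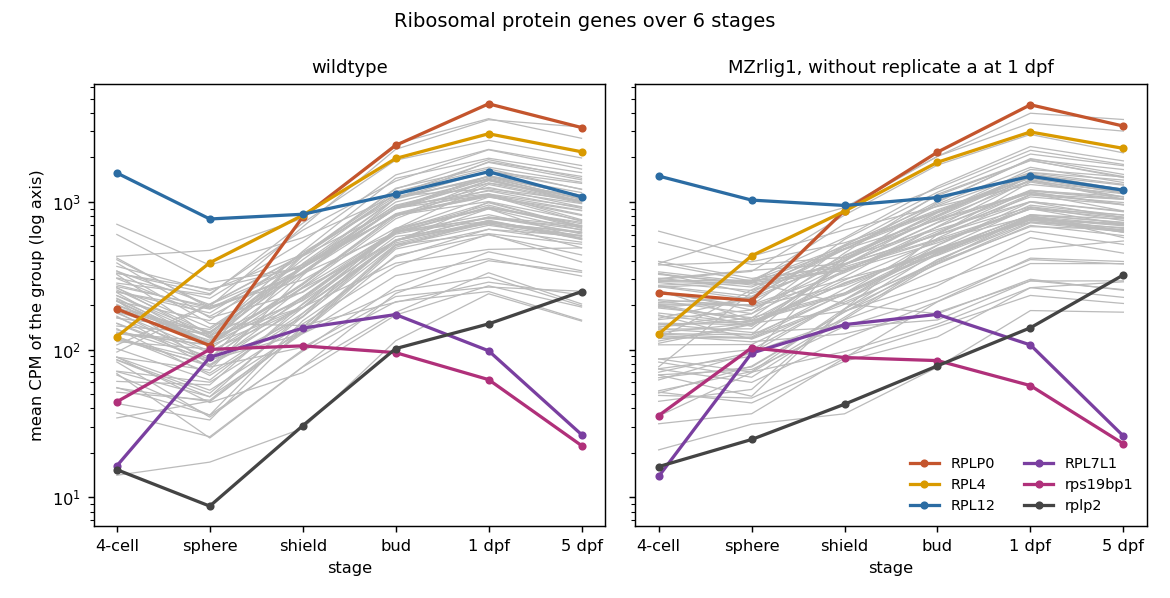
Mean CPM of each member over the 6 stages on a log10 axis, wildtype and MZrlig1 side by side, leaving out members whose median over the group means was under 5 CPM. Most members were lowest at sphere in wildtype and highest at 1 dpf, while RPL7L1 and rps19bp1 peaked earlier and the means of RPL12 at 4-cell and 1 dpf differed 1.02-fold.

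The stalk proteins RPLP0, RPLP1 and RPLP2, which recruit the GTPases of translation to the large subunit, rose steeply. RPLP0 had 219, 201, 218 and 114 CPM in wildtype at 4-cell, 105 and 108 CPM at sphere, and 834, 769 and 765 CPM at shield. It reached 1973, 3040 and 2225 CPM at bud, 4362, 5154 and 4311 CPM at 1 dpf, and 3183, 3198 and 3175 CPM at 5 dpf. Pools of neighbouring stages did not overlap, and the mean at 1 dpf was 24.5-fold that at 4-cell. In wildtype, rplp2 was the only stalk member with a higher mean in 5 dpf larvae than at 1 dpf: it had 135, 168 and 144 CPM at 1 dpf and 267, 229 and 244 CPM at 5 dpf, without overlap, but its test against 1 dpf did not pass.

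Other large-subunit members differed widely in their range. RPL4, a loop of which lines the exit tunnel for the new chain, had 147, 125, 128 and 89.6 CPM at 4-cell, 375 and 399 CPM at sphere and 2817, 3284 and 2570 CPM at 1 dpf, a 23.7-fold difference of means between 1 dpf and 4-cell. RPL8, close to the site of peptide bond formation, differed 20.1-fold between the same stages. RPL12, at the base of the stalk, had 1830, 1640, 1669 and 1137 CPM at 4-cell, 749 and 782 CPM at sphere and 1478, 1755 and 1561 CPM at 1 dpf, so that its embryos at 1 dpf overlapped with those at 4-cell and the means differed 1.02-fold. RPL4, RPL8 and RPL12 were picked out after their values were seen.

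RPL7L1, a relative of RPL7 whose human product sits in precursors of the large subunit, followed a course of its own. It had 22.4, 18.1, 14.6 and 10.1 CPM at 4-cell in wildtype, 81.7 and 95.4 CPM at sphere, 140, 133 and 145 CPM at shield, and 148, 211 and 159 CPM at bud. It was back to 95.9, 107 and 91.0 CPM at 1 dpf and to 30.7, 23.6 and 25.3 CPM at 5 dpf. Among small-subunit names, rps19bp1 took a similar course, from 55.2, 40.8, 43.6 and 37.5 CPM at 4-cell to 106, 108 and 103 CPM at shield and 22.9, 20.5 and 23.7 CPM at 5 dpf. In both genes the larval pools lay below every pool of shield and bud.

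Each stage was then tested against the one before it with edgeR's quasi-likelihood test, after scaling by trimmed mean of M-values (TMM), with Benjamini-Hochberg adjustment over all genes tested; 82 members passed the filter on low counts. All fold changes are on the log2 scale, with their SE where given. From 4-cell to sphere in wildtype, 3 members rose and 64 fell, where 23.7% of all genes tested rose and 17.3% fell. The members' median log2 fold change was -1.12 and that of all genes 0.05. Those that rose were RPL7L1 (2.01 ± 0.25 SE, adjusted p = 1.82e-06), RPL4 (1.23 ± 0.20, adjusted p = 6.42e-05) and rps19bp1 (0.74, adjusted p = 0.00526). The largest falls were those of RPS29, a zinc-binding protein of the small subunit (-1.88 ± 0.41, adjusted p = 0.00142), and rplp2l (-1.88 ± 0.50, adjusted p = 0.00655), and RPLP0 fell by 1.26 (adjusted p = 0.000839). Without wildtype sphere replicate d, 43 members were called in place of 67. Scaling by total count moved the median of all genes to 0.48 and gave 5 members up and 48 down, where all genes split into 7485 up and 2452 down against 5322 and 3898 in the main fit. With the replicate letter as a block, 3 members rose and none fell; these stages share only replicate f.

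From sphere to shield 79 of 82 members rose and none fell, against 32.1% and 24.7% of all genes, and the member median was 2.02 against 0.33. RPLP0 rose most (3.56 ± 0.31, adjusted p = 1.16e-08), followed by RPL7 (2.82 ± 0.24, adjusted p = 5.91e-09), a large-subunit protein that binds rRNA. RPS28 was among those that did not pass. With the replicate letter as a block, 31 members were called, all higher. In that fit 2863 of 22475 genes rose and 3425 fell. Sphere and shield share no replicate letter in wildtype, so the block cannot pair their pools. By total count 72 members were higher, where the median of all genes was -0.18. All genes then split into 4618 up and 7884 down against 7224 and 5555. From shield to bud 77 rose and none fell, against 27.4% and 21.2% of all genes, with a median of 1.51 against 0.05. RPL22L1, a relative of RPL22, rose by 2.09 (± 0.33, adjusted p = 4.32e-05) and the RPL5 copy ENSDARG00000020197 by 2.04 (± 0.24, adjusted p = 9.56e-07). RPL5 binds 5S rRNA together with RPL11.

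After bud the members stopped rising relative to other genes in wildtype, by TMM scaling. From bud to 1 dpf none rose and 2 fell, RPL7L1 (-1.34 ± 0.24, adjusted p = 9.13e-05) and rps19bp1 (-1.14 ± 0.19, adjusted p = 5.24e-05), where 32.5% of all genes rose and 28.2% fell. The member median was -0.03, although the members' share of the count was higher at 1 dpf. This step rests on the scaling: by total count 39 members rose and 2 fell, with a median of all genes of 0.56 and a split of all genes of 9415 up and 3866 down against 7313 and 6348. By DESeq2 size factors it was 3 and 2, with a median of all genes of 0.23, and by the DESeq2 Wald test 4 and 2. Without wildtype bud replicate b, the pool of the highest share, 30 members were called, and without bud replicate a 4.

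From 1 dpf to 5 dpf 1 member rose and 13 fell in wildtype, where 32.4% of all genes rose and 29.9% fell. RPL7L1 fell by 1.93 (± 0.25, adjusted p = 1.98e-06), rps19bp1 fell by 1.53 (± 0.20, adjusted p = 2.37e-06) and RPLP0 fell by 0.59 (adjusted p = 0.0401). The other 10 that fell were RPS15A, RPL28, RPS4Y2, RPL12, rpl32, RPL39, RPL9, RPL38, RPS24 and RPL29, named after their values were seen. This count was unstable. It was 25 without wildtype 1 dpf replicate c, 9 without replicate a and 3 without replicate b of that stage, and 8, 5 and 4 without 5 dpf replicates a, b and c. It was 27 by total count, 3 by DESeq2 size factors (1 up and 2 down, with a median of all genes of 0.24 and a split of 8428 up and 5143 down against 7274 and 6716) and 50 with these stages fitted alone. RPL7L1 and rps19bp1 fell at both late steps.

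In MZrlig1, from 4-cell to sphere 6 rose and 7 fell, where 22.5% of all genes rose and 15.1% fell, and the member median was -0.28. RPL7L1 (2.53, adjusted p = 4.97e-09), RPL4 (1.51, adjusted p = 3.36e-06), rps19bp1 (1.29), RPL8 (1.41) and RPL35A (0.72) were among those that rose. Those that fell included RPL17 (-0.92, adjusted p = 0.0162) and the RPL5 copy ENSDARG00000015862 (-0.82, adjusted p = 0.0104), besides RPL12, RPS14, RPL19 and RPL9. Without 4-cell replicate f, the pool of the lowest share, 25 members were called, and without sphere replicates e and f 7 and 5. By total count it was 11 up and 4 down, with a median of all genes of 0.22 and a split of all genes of 5951 up and 2526 down against 5015 and 3360. A block on the letters gave 13 higher and 1 lower, and the member median was then 0.41, of the opposite sign; these stages share only replicate f in MZrlig1 too. Whether this step alone differed between genotypes was not tested. The interaction test further on takes all stages jointly and cannot single out this step.

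From sphere to shield 74 members rose in MZrlig1 and none fell, against 6084 higher and 5042 lower of 22313 genes tested (49.9% either way). RPLP1 (2.78) and RPS2 (2.53) led, with RPLP0 at 2.53. With the replicate letter as a block 8 were called, all higher, where 2482 of 22313 genes rose and 2363 fell. These stages share no replicate letter in MZrlig1 either. By total count 63 members were called, with a split of all genes of 4391 up and 6928 down against 6084 and 5042. From shield to bud 51 rose and none fell, against 23.4% and 19.7%; the RPL5 copy ENSDARG00000020197 rose by 1.49 and RPL7 by 1.15. That count was 19 without shield replicate c and 28 without bud replicate b. From bud to 1 dpf 8 rose and 2 fell, against 6094 higher and 4898 lower of 22313 genes tested (49.3% either way). The member median was 0.48 and that of all genes 0.02. RPL22L1 (0.94, adjusted p = 0.00606) and the RPL5 copy ENSDARG00000020197 (0.84, adjusted p = 0.0375) rose with RPL26, RPL7, RPL19, RPL39, RPL31 and rps27a, which is made as a fusion with ubiquitin. RPL7L1 (-1.03) and rps19bp1 (-0.90) fell, as in wildtype. This count ranged from 2 to 38: 38 without bud replicate b, 4 without bud replicate a, 4 without bud replicate c, 4 without 1 dpf replicate b and 2 without 1 dpf replicate c. By total count 75 rose and 2 fell, with a median of all genes of 0.35 and a split of all genes of 7314 up and 3136 down against 6094 and 4898. A block on the letters gave 37 calls, and these stages fitted alone gave 77.

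From 1 dpf to 5 dpf in MZrlig1 2 members rose and 2 fell, against 29.4% and 22.6% of all genes. The stalk gene rplp2 rose by 1.36 (adjusted p = 0.0110). RPL7L1 fell by 1.91 and rps19bp1 fell by 1.17. The call for rplp2 was lost without 1 dpf replicate b (1.19, adjusted p = 0.0999) and without 5 dpf replicate b (0.73, adjusted p = 0.0760), and 7 members were called without the latter. Its values were 128 and 153 CPM at 1 dpf and 252, 485 and 223 CPM at 5 dpf, where replicate b was the highest.

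Related genes changed in proportion during development. The part of a pair's FPKM is given here as mean ± SD in wildtype. The RPL5 copy ENSDARG00000015862 made up 89.1% ± 1.12 of both RPL5 copies in 4-cell embryos and 87.8% ± 0.601 in sphere embryos. Its part was 76.9% ± 1.28 in shield and 61.9% ± 0.0469 in bud embryos, and 47.5% ± 1.82 and 50.3% ± 0.677 in 1 dpf and 5 dpf animals. MZrlig1 had 90.4% ± 1.70 at 4-cell and 48.4% ± 0.671 at 1 dpf. In CPM both copies were more abundant at 1 dpf than at 4-cell: ENSDARG00000015862 had 549 to 804 CPM in wildtype at 4-cell and 1012 to 1460 CPM at 1 dpf, and ENSDARG00000020197 had 56.1 to 106 CPM and 1182 to 1488 CPM. Heads had 53.3% ± 0.446 of the first copy in wildtype good responders.

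The RPS26 copy ENSDARG00000037071 went from 92.4% ± 0.665 of its pair at 4-cell to 76.1% ± 0.904 at 1 dpf. Reads could be split between such copies by the counting step, which is not given in the sources used here, so levels of single copies are uncertain.

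Within the stalk, rplp2 was a small part of rplp2 and rplp2l together in early embryos, 7.94% ± 0.928 at 4-cell and 18.1% ± 1.34 at bud. It was 22.2% ± 8.16 at 1 dpf and 38.4% ± 0.952 at 5 dpf. The pools at 1 dpf ran from 17.1% to 31.6% and overlapped those at bud, and MZrlig1 had 17.7% ± 0.551 at 1 dpf. Heads were near the larval value, with 40.4% ± 2.82 in wildtype good responders. RPL7L1 was 8.21% ± 1.53 of RPL7L1 and RPL7 together at 4-cell, 43.8% ± 2.49 at sphere and 1.34% ± 0.156 at 5 dpf in wildtype. RPL22L1 stayed between 22.1% and 32.9% of RPL22L1 and RPL22 over the wildtype stage means.

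**Figure D3:**
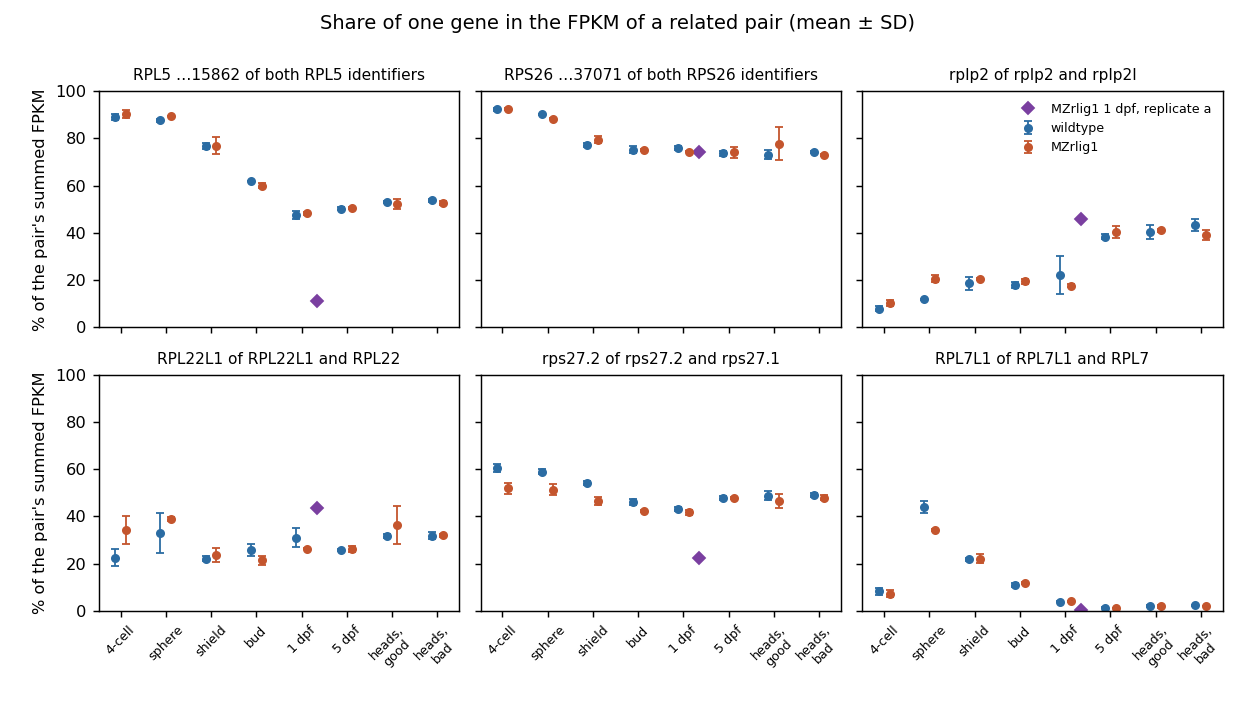
Part of the pair's summed FPKM held by the first gene of each pair of related members, in percent, as mean ± SD by stage and head group for both genotypes. The RPL5 copy went from 89.1% at 4-cell to 47.5% at 1 dpf in wildtype, and rplp2 from 7.94% to 38.4% at 5 dpf.

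For rps27.2 and rps27.1, both small-subunit genes, the genotypes lay apart from 4-cell to 1 dpf. The part held by rps27.2 was 58.5% to 62.8% in wildtype and 49.3% to 54.9% in MZrlig1 at 4-cell, and 58.1% to 59.6% against 49.5% to 53.1% at sphere. At shield it was 53.3% to 54.9% against 44.96% to 48.0%, at bud 44.6% to 47.0% against 41.9% to 42.9%, and at 1 dpf 42.6% to 44.0% against 40.7% to 42.5%. The ranges did not overlap at these 5 stages, while at 5 dpf the means were 47.7% ± 0.911 and 47.8% ± 0.565. RPL22L1 also held a larger part of its pair in MZrlig1 at 4-cell, 29.9% to 43.1% against 18.5% to 27.0%, and a smaller one at bud, 19.1% to 23.3% against 23.5% to 28.2%, and at 1 dpf, 26.2% to 26.5% against 28.3% to 35.7%. The part of rplp2 was larger in MZrlig1 at 4-cell, 9.16% to 11.9% against 6.71% to 8.74%, and at sphere, 19.6% to 21.6% against 11.8% to 12.1%. That of RPL7L1 was smaller at sphere, 33.8% to 34.6% against 42.0% to 45.6%. The RPL5 copy ENSDARG00000015862 held 89.6% to 89.7% against 87.3% to 88.2% at sphere and 59.1% to 60.7% against 61.8% to 61.9% at bud. The RPS26 copy ENSDARG00000037071 held 88.3% to 88.5% against 90.2% to 90.4% at sphere and 78.4% to 81.4% against 76.7% to 78.2% at shield, and its part was also apart at 1 dpf and in heads of bad responders, lower in MZrlig1. These ratios were not tested, and the pairs whose genotypes lay apart were picked out after their values were seen.

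Each stage was next compared between genotypes. At sphere 78 of 82 members were higher in MZrlig1 and none lower, against 18.8% of all genes called higher. The members' median log2 difference was 0.80, and that of all genes -0.02. All 4 stalk genes were higher (median 0.97), 41 of 43 other large-subunit genes (median 0.74) and 33 of 35 small-subunit genes (median 0.82). By CPM, 75 of the 83 members had both MZrlig1 pools above both wildtype pools, against 8 at shield and 0 to 2 at the other stages. The share of all genes set apart in this way was not counted. Small groups separate more easily than larger ones, so this count cannot be compared between stages of unlike group size.

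The largest difference was that of rplp2, which had 7.88 and 9.52 CPM in wildtype and 23.9 and 25.3 CPM in MZrlig1 at sphere (1.68 ± 0.18, adjusted p = 3.02e-05). RPLP0 had 105 and 108 CPM against 195 and 233 CPM (1.19 ± 0.10, adjusted p = 3.61e-06). RPL27, a large-subunit protein, had 49.97 and 45.8 CPM against 92.4 and 107 CPM (1.24 ± 0.11, adjusted p = 9.77e-06). In these 3 genes the genotypes did not overlap. The stalk members rplp2l (0.76, adjusted p = 0.000349) and RPLP1 (0.49, adjusted p = 0.00308) differed less. RPS2 had 173 and 219 CPM in wildtype and 203 and 236 CPM in MZrlig1, where the pools overlapped (0.35, adjusted p = 0.0395). The 4 members not called included RPL7L1 (0.28 ± 0.11, adjusted p = 0.0565), rps19bp1 (0.22, adjusted p = 0.0889) and the RPL5 copy ENSDARG00000020197 (0.12, adjusted p = 0.535).

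The count at sphere depended on how the spread was estimated. With all whole-embryo libraries in 1 fit, 7 members were called higher against 2.45% of all genes. They were RPS7, RPL27, RPL10, RPL10A, RPL7, RPS4Y2 and the RPS26 copy ENSDARG00000030408. In that fit rplp2 missed the threshold (adjusted p = 0.0881). Leaving out 1 library at a time left 73 to 80. By total count 71 were higher, with a median of all genes of -0.20 and a split of all genes of 1752 up and 4154 down against 2844 and 2589. Other values moved with the genotype in the same pools. The maternal markers summed to 1563 to 1675 CPM in wildtype and 769 to 874 CPM in MZrlig1, with 5 of 5 markers measured, and the sphere and shield markers to 400 to 413 CPM against 638 to 760 CPM. Mitochondrially encoded genes took 1.17% to 1.417% of counts against 3.16% to 3.43%. At 4-cell the mitochondrial share also differed, 1.38% to 1.69% against 2.85% to 4.05%, while the members' shares overlapped. The part of embryo age or RNA makeup in the difference at sphere was not tested.

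**Figure D4:**
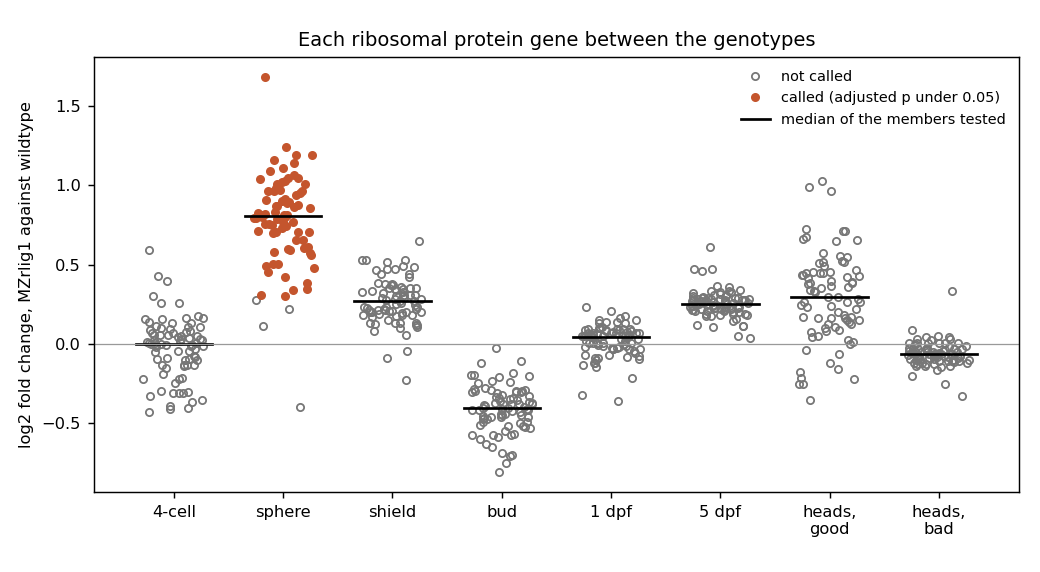
Log2 fold change of MZrlig1 against wildtype for each member tested, by stage and head group, with filled points for members called at an adjusted p under 0.05 and a bar at the median of members tested. At sphere 78 of 82 members were called higher, with a median of 0.80; no other comparison had a call.

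At the other stages no member passed. At 4-cell edgeR called 0 of 82 members, against 3.16% of all genes, with a median of -0.00 and 1 member at an unadjusted p under 0.05, and DESeq2 called 0. At shield it was 0 of 81 against 3.84%, with a median of 0.27 and 14 at an unadjusted p under 0.05, while DESeq2 called 1. That member was RPS12, of the small subunit, which had 274, 222 and 243 CPM in wildtype and 359, 443 and 328 CPM in MZrlig1, without overlap (0.65, adjusted p = 0.0635 with edgeR). Without MZrlig1 shield replicate c, 4 members were called: RPS12, rps20, RPS7 and the RPS26 copy ENSDARG00000037071. At bud 0 of 82 were called against 0.814%, with a median of -0.40, 0 at an unadjusted p under 0.05, and 0 with DESeq2. A block on the letters at bud also gave 0 calls with edgeR, with a member median of -0.31. In that fit 9 members and 3110 of 15846 genes had an unadjusted p under 0.05. At 1 dpf it was 0 of 81 against 1.03%, with a median of 0.04, 1 at an unadjusted p under 0.05, and 0 with DESeq2. At 5 dpf it was 0 of 82 against 1.02%, with a median of 0.25, 0 at an unadjusted p under 0.05, and 0 with DESeq2. In the edgeR fits without a block, genes at an unadjusted p under 0.05 numbered 2089 of 12925 at 4-cell and 2832 of 14903 at shield. They numbered 1974 of 15846 at bud, 1580 of 18758 at 1 dpf and 2092 of 20465 at 5 dpf.

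Whether the genotype difference changed with stage was tested over all stages together. No member passed with edgeR, against 5.92% of all genes; 16 had an unadjusted p under 0.05, and DESeq2's likelihood ratio test called 7. The smallest p-values were those of RPL22L1 (adjusted p = 0.0574) and RPL31 (adjusted p = 0.0948). RPL22L1 had 17.1, 15.4, 12.4 and 11.4 CPM in wildtype at 4-cell and 26.2, 17.2, 21.6 and 18.7 CPM in MZrlig1. It had 208, 255 and 252 CPM in wildtype at 1 dpf against 169 and 199 CPM. Both pairs of groups were apart, in opposite directions. Without wildtype bud replicate a 6 members were called, and 1, RPL22L1, without wildtype bud replicate c, wildtype sphere replicate f, MZrlig1 shield replicate c, or MZrlig1 5 dpf replicate b or c.

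Of 21464 genes tested with edgeR in heads, 2196 had an unadjusted p under 0.05 between genotypes in good responders and 1476 in bad responders. Averaged over behaviour 2464 had one. Bad against good behaviour had 167 such genes in wildtype and 1135 in MZrlig1, and the interaction of genotype and behaviour had 818. In heads no member was called in any comparison. Between genotypes it was 0 of 82 in good responders against 0.708% of all genes, with a median of 0.30, 14 at an unadjusted p under 0.05, and 0 with DESeq2. In bad responders it was 0 against 0.983%, with a median of -0.06, 0 at an unadjusted p under 0.05, and 0 with DESeq2. Averaged over behaviour it was 0 against 2.73%, with 2 at an unadjusted p under 0.05 and 0 with DESeq2. Bad against good behaviour gave 0 in wildtype, against 0.0% of all genes and with 0 at an unadjusted p under 0.05. In MZrlig1 it gave 0 against 0.00466%, with 21 at an unadjusted p under 0.05. DESeq2 called 0 in both. The interaction of genotype and behaviour gave 0 against 0.0%, with 5 at an unadjusted p under 0.05 and 0 with DESeq2; its smallest p-values were those of rplp2 (-1.32, adjusted p = 0.856) and rplp2l (-1.05, adjusted p = 0.856).

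These counts at an unadjusted p under 0.05 rest on 1 library: without MZrlig1 replicate 3 of the good responders they were 0 in each of the 4 comparisons that use it, and the median between genotypes in good responders was 0.09. MZrlig1 replicate 3 of the good responders had 43 members above every other head library, 10 below and 30 within their range. How many of all genes lay outside that range in this pool was not counted. The stalk genes led: rplp2 had 841 CPM against 232 to 433 CPM in the other heads, RPLP1 had 3219 CPM against 983 to 1552 CPM, and rplp2l had 1437 CPM against 477 to 722 CPM. RPL22L1 had 422 CPM against 168 to 263 CPM. RPL26, RPL7, RPL28 and RPS4Y2 were the lowest of the 10, at 0.615 to 0.661 of the mean of the others. This pool also had 1.27% of its counts in mitochondrially encoded genes, against 2.61% to 3.61% in the other heads, and the part of that in the pattern was not tested. With it as the only MZrlig1 pool of good responders, assumed to vary like the other groups, RPLP1 (1.55, adjusted p = 0.0307) and rplp2l (1.496, adjusted p = 0.0268) were called.

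MZrlig1 replicate a at 1 dpf gave 49.4% of its counts to ribosomal protein genes, while the remaining 1 dpf libraries gave them 7.97% to 10.9%. Of the 83 members, 77 lay above the highest other 1 dpf library, 4 below the lowest and 2 within, and 2 were at 0, rps11l among them. Of the 20649 genes with counts in every other 1 dpf library, 63.0% were at 0 in this one. How many of all genes lay above or below the other libraries was not counted. Across 81 members the ratio to the mean of the other 5 libraries had a median of 5.07 and ran from 0.265 to 20.0. It was not an even gain: the ratios of the 90th and 10th percentile members differed 8.98-fold, against 1.14-fold to 1.63-fold in the other 1 dpf libraries.

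RPS19, a small-subunit protein needed to mature its rRNA, had 21584 CPM against 946 to 1261 CPM in the other 1 dpf libraries. The stalk gene rplp2 had 2896 CPM against 128 to 168 CPM, and RPL37, of the large subunit, 7977 CPM against 389 to 517 CPM. RPS2 alone took 4.00% of the counts. RPLP0 rose less, with 11770 CPM against 4311 to 5154 CPM. RPL7L1 was lower, with 26.9 CPM against 91.0 to 110 CPM, as was RPL28 with 714 CPM against 867 to 1087 CPM. The copy ENSDARG00000015862 held 11.2% of both RPL5 copies, where the other 1 dpf libraries lay between 45.4% and 48.9%, and rps27.2 held 22.3% of its pair, where they lay between 40.7% and 44.0%.

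**Figure D5:**
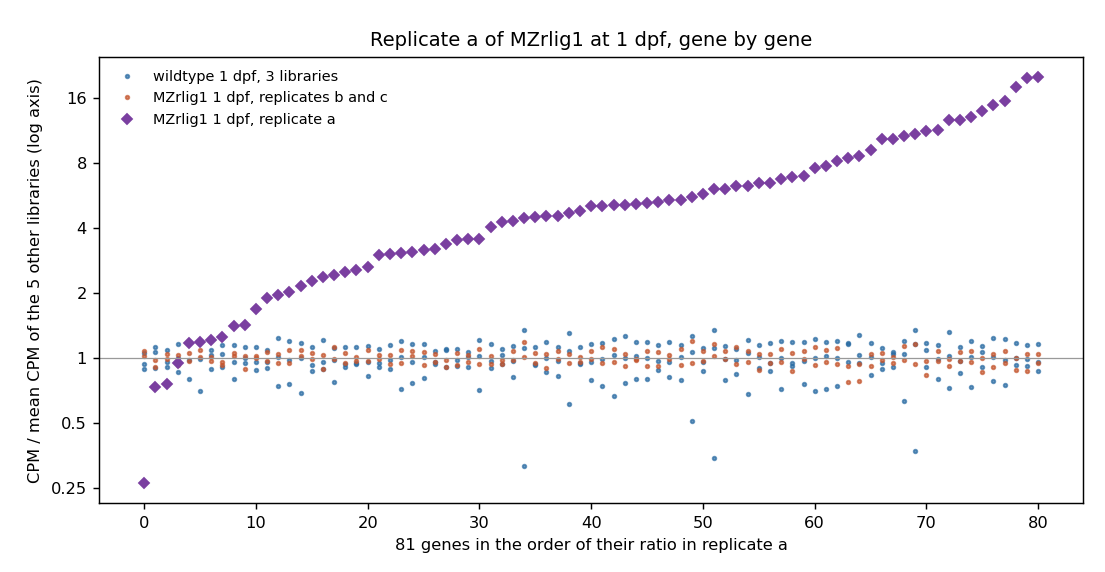
Ratio of each of 81 members in MZrlig1 replicate a at 1 dpf to the mean of the other 5 libraries of that stage, on a log axis and in order of size. The ratios ran from 0.265 for RPL7L1 to 20.0 for RPS19, with a median of 5.07.

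Components of the ribosome that the name rule does not take were also high in that library. FAU, a fusion that yields RPS30, had 14763 CPM against 288 to 403 CPM in the remaining libraries of that stage, and RACK1, a scaffold on the small subunit, had 5473 CPM against 2044 to 2513 CPM. The FAU relative faub had 0.814 CPM against 9.82 to 12.2 CPM. Translation factors and other proteins of known TOP mRNAs took 2.29% of its counts against 3.31% to 3.98%, and ribosome biogenesis factors 0.353% against 0.723% to 0.785%. Mitochondrial ribosomal proteins, which serve another ribosome, took 0.269% against 0.215% to 0.2501%, and mitochondrially encoded genes 1.93% against 2.04% to 2.82%. How the library came to differ was not tested.

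Genes that work with the members took other courses. Of 60 ribosome biogenesis factors, 41 rose and 4 fell from 4-cell to sphere in wildtype, against 23.7% and 17.3% of all genes; at this step 64 of 82 ribosomal protein genes fell. WDR43 (3.47 ± 0.15, adjusted p = 9.32e-13) and NSA2 (2.90 ± 0.27, adjusted p = 6.08e-08) rose most. From sphere to shield 45 rose and 3 fell, against 32.1% and 24.7%. From bud to 1 dpf 58 of 60 fell, against 28.2% of all genes (median -1.422), led by GAR1 (-2.23 ± 0.26, adjusted p = 6.61e-07), and from 1 dpf to 5 dpf 56 fell, against 29.9% (median -1.70), led by nop2 (-2.29 ± 0.16, adjusted p = 1.16e-09). In MZrlig1 56 and 55 fell at these late steps, where 4898 of 22313 genes tested fell at the first and 22.6% at the second. RPL7L1 and rps19bp1 were the ribosomal protein names that fell at both. Of 13 genes of RNA polymerase I, which transcribes rRNA, 13 fell from bud to 1 dpf and 11 from 1 dpf to 5 dpf in wildtype, against the same 28.2% and 29.9% of all genes. Of 75 mitochondrial ribosomal proteins, 48 rose from shield to bud, against 27.4% of all genes, and 48 fell from 1 dpf to 5 dpf, against 29.9%.

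Between genotypes at sphere all 4 other ribosomal components were higher in MZrlig1, FAU by 1.27 (± 0.19, adjusted p = 0.000362). Of 24 TOP mRNAs tested 14 were higher and 1 lower, the latter pabpc1a (-0.30, adjusted p = 0.00267), and of 60 biogenesis factors 33 were higher and 3 lower, with IMP4 at 1.19 (adjusted p = 1.95e-05) and EIF6, which keeps the subunits apart, at -1.19 (adjusted p = 2.25e-06). All 7 genes tested of the list of p53 and its targets were higher, among them mdm2 (1.62 ± 0.16, adjusted p = 0.00037). In the other lists 0 of 13 genes of RNA polymerase I were higher and 2 lower, 4 of 15 genes of growth control were higher and 5 lower, and 15 of 72 mitochondrial ribosomal proteins were higher and 6 lower. All 12 mitochondrially encoded genes tested were higher. These lists were chosen with results of these data known, and their counts stand beside 18.8% of all genes higher and 17.2% lower.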

How the data were processed

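Poly(A) RNA-seq libraries were measured in 49 samples. The authors deposited raw counts per gene and FPKM values; STAR 2.7.10b, Salmon 0.14.1, DESeq2 1.42.1 and the build GRCz11 are named in the submitters' processing notes, with no role, and the annotation, counting method and strand setting are not given in the sources used here. A member's share is its count over the library's total count, and CPM per library uses the same total. FPKM, as deposited by the authors, served only for levels per length and for parts of a pair. Counts were tested with edgeR 4.0.16 (R 4.3.3, limma 3.58.1): TMM, filterByExpr, robust quasi-likelihood fits, and Benjamini-Hochberg adjustment over all genes within each comparison, at an adjusted p under 0.05. Genotypes were fitted stage by stage, heads as 4 groups, and stages within each genotype. The edgeR fits were also run on counts simulated from edgeR's own model. Few genes were changed there, equally up and down, so that run cannot test the choice of scaling. DESeq2 1.42.0, other scalings, no filter, a replicate block, other sets of libraries and leaving out each library were alternatives. Groups came from the sample titles.

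The members and the lists were chosen with earlier results of these data known. Members were named where they have a close relative, were among the 3 highest or lowest by FPKM, were among the 2 called members of largest change in a direction with at least 5 CPM, or had the 2 smallest p-values of an interaction; exceptions are stated, and a few members are counted but not reported by name here. Same-letter replicates were taken to pair wildtype and MZrlig1 at bud, where every same-letter correlation of deviations from the group means was over 0.1 (0.357, 0.486 and 0.327 on log2 CPM); a block fit there called 0 members.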

Additional observations from a re-analysis of the deposited data

Results flagged for a closer look

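In groups of 4 pools, 1 pool lay far from the other 3 in 7 cases; chance flags about 1 in 20 groups, and 33 members were looked at in 4 such groups. Wildtype 4-cell replicate f was low for rplp2 (6.40 CPM, others 17.6 to 18.9), RPLP0 (114 CPM, others 201 to 219) and RPL19 (152 CPM, others 196 to 204), and MZrlig1 4-cell replicate f was low for RPL4 (95.0 CPM, others 134 to 141). Wildtype good-responder heads replicate 2 was high for rps19bp1 (19.6 CPM, others 14.6 to 15.4). The very low gene rps11l had 0.0714 CPM in wildtype 4-cell replicate c, where the others were at 0, and 0.444 CPM in MZrlig1 bad-responder heads replicate 4, with the others at 0.164 to 0.211 CPM.

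For 3 of the 33 members looked at, the genotypes were apart in opposite directions at different stages. That was not tested gene by gene beyond the joint interaction, and how many of all genes did so was not counted. At sphere 75 of the 83 members were higher in every MZrlig1 pool, so that direction was not particular to these genes. RPS29 was higher in every MZrlig1 pool at sphere and lower in every one at 1 dpf (2 groups). RPL22L1 was higher at 4-cell and sphere and lower at 1 dpf (3 groups). The gene rps19bp1 was higher in heads of bad responders and lower at shield (2 groups).

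MZrlig1 replicate a at 1 dpf, which is left out of every comparison, gave 49.4% of its counts to the members, against 7.97% to 10.9% in the other 1 dpf libraries.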

How the results depend on the processing

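Of 226 counts of called members and share differences under omission of 1 library, 198 stayed within 1.5 times the count or moved by less than the spread between replicates, and 28 moved by more; under other settings it was 127 of 155, and 28. Share differences that stayed within the spread still changed sign under omission: they ran from -0.221 to 0.0963 percentage points at 4-cell, -1.76 to 0.153 at bud and -0.514 to 0.940 at 1 dpf. The cause was not tested. The genotype count at sphere, 78, was 7 with all whole-embryo libraries in 1 fit, and at shield 1 with DESeq2 and 1 with no filter. In wildtype, the count from bud to 1 dpf, 2, was 5 by DESeq2 size factors, 41 by total count, 6 with DESeq2 and 6 with no filter; from 1 dpf to 5 dpf, 14, it was 3, 27, 4 and 36, and 50 with those stages alone. In MZrlig1 from bud to 1 dpf, 10, it was 32, 77, 25 and 16, and 77 with those stages alone. With MZrlig1 replicate a at 1 dpf it was 74 there and 71 from 1 dpf to 5 dpf, the log2 change of rplp2 at the latter step turned to -2.78 (adjusted p = 0.0569), and the share difference at 1 dpf was 13.5 percentage points. DESeq2's likelihood ratio test called 7 members in the stage interaction, and 3963 of 22985 genes. By total count the genes called between genotypes split into 88 higher and 82 lower at 5 dpf, against 133 and 76, and into 83 and 91 in good-responder heads, against 88 and 64, with 0 members called either way. As a share of summed FPKM the difference was 1.73 percentage points at sphere and 1.24 at shield, and both are counted among the 28 that moved. That share is on a larger scale, with wildtype means of 4.53% and 9.31%, against 1.07% and 2.42% of counts. The differences in points are therefore not comparable with those of the count share.

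Leaving out 1 library gave 43 to 76 called from 4-cell to sphere in wildtype, 2 to 30 from bud to 1 dpf and 3 to 25 from 1 dpf to 5 dpf. In MZrlig1 it gave 5 to 25, 19 to 48 from shield to bud, 2 to 38 from bud to 1 dpf and 3 to 7 from 1 dpf to 5 dpf. It gave 0 to 4 between genotypes at shield, 0 to 2 in good-responder heads and 0 to 6 in the stage interaction.

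With the replicate block, the count was 3 in place of 67 from 4-cell to sphere and 31 in place of 79 from sphere to shield in wildtype, 14 in place of 13 from 4-cell to sphere (13 higher and 1 lower, against 6 and 7), 8 in place of 74 from sphere to shield and 37 in place of 10 from bud to 1 dpf in MZrlig1, and 2 in the stage interaction. Except between genotypes at bud, the letters were treated as shared numbers only, with same-letter correlations from -0.55 to 0.41. Whether a letter marks a shared clutch or batch was not tested. No paired analysis was possible between genotypes at sphere because those groups share only replicate f. Sphere and shield share no replicate letter in either genotype, so the block could not pair pools at that step.

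Of 214 values of named members under other settings, 203 stayed on the same side of the threshold, called or not called, without a change of direction. Of 266 under omission of 1 library, 244 did. Many of these members were named for a large change among those called, so the choice partly set this stability. Genes at a few CPM or fewer, such as rps11l, are limited by depth.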
